A study of Mus musculus with 28 samples.

Results

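The cells described here are the Mpo-low cells found in cultures of a Ty1-tagged MOZ-TIF2 line after 3 days in 5 µM benzarone. They were chosen cell by cell from the counts of unique molecular identifiers (UMIs, 1 per captured RNA molecule). A day 3 cell was taken when S100a8 and S100a9 together made up less than 1000 counts per 1000000 UMIs of the cell (CPM, as used throughout) and Mpo less than 200 CPM. By this rule 210 of the 829 day 3 cells were Mpo-low (25.3%, exact binomial 95% interval 22.4 to 28.4), among 5696 single cells in all. They were set against the 399 day 3 cells that had as little S100a8 and S100a9 but at least 500 CPM of Mpo, called Mpo-high. Of the other day 3 cells, 43 lay between the Mpo limits and 177 were over the S100 limit. All intervals given for cells cover counting error only, because each condition was a single sample and the cells of a sample are not replicates.

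The line was made from c-Kit+ stem and progenitor cells of C57Bl/6 mice that were transduced by retrovirus with Ty1.MOZ-TIF2, sorted for GFP and replated serially in methylcellulose. Cells were profiled by droplet sequencing with hashtag antibodies after 1 day in DMSO or 5 µM benzarone, after 3 days in benzarone, and after 5 days in DMSO or benzarone, where both day 5 conditions were held in 1 sample. No day 3 DMSO cells were analysed here, so days and drug cannot be told apart at day 3 itself. Replicated bulk RNA came from 2 further lines, made from the same kind of marrow cells with EYA1 and HOXA9, or with HOXA9 alone, sorted on fluorescent markers, and kept for 72 h in 5 µM benzarone or DMSO (n = 3 in each of 4 groups). Whether the bulk replicates are separate cultures is not given in the sources used here, so their spread may be technical. All these cells are progenitors immortalised in culture, and each transgene is driven by a retrovirus in every group, the DMSO controls included.

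MOZ-TIF2 is a fusion oncoprotein of acute myeloid leukaemia that joins a histone acetyltransferase to a nuclear receptor coactivator, and it holds marrow progenitors at a stage that keeps dividing. Benzarone inhibits the phosphatases of the EYA family. Myeloperoxidase, the product of Mpo, is packed with elastase, proteinase 3 and cathepsin G into the primary granules of promyelocytes, and its RNA falls as these cells mature, while S100a8 and S100a9 mark later neutrophils. Arginase 1 (Arg1) is an enzyme of alternatively activated macrophages, Ccl7 is a chemokine that attracts monocytes, and Ppbp encodes the precursor of a chemokine made by megakaryocytes and some monocytes.

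The values that chose the cells are given only as a description. Mpo stood at a median of 34.6 CPM in the Mpo-low cells and 1806 in the Mpo-high cells, and 68 Mpo-low cells had no Mpo UMI. The Mpo-low cell nearest to the limit had 198.8 CPM and the next cell outside had 206.4, with 11 cells between 150 and 200 CPM. The lowest Mpo-high cell had 510.5 CPM, and the highest cell under that limit had 499.0. Medians of S100a8 and S100a9 together were 145 and 147 CPM, so the 2 sets differed little in what removed the later neutrophils. A further 104 day 3 cells lay under the Mpo limit but over the S100 limit and are not members.

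**Figure D1:**
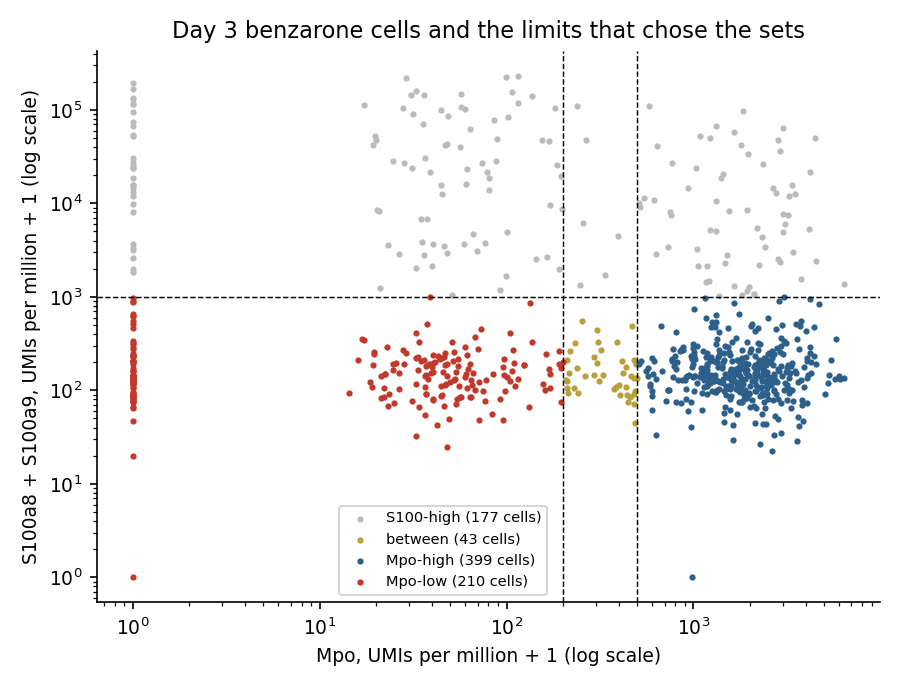
Each point is 1 day 3 benzarone cell, with Mpo on the x axis and S100a8 plus S100a9 on the y axis, both as CPM plus 1 on log scales; dashed lines are the limits. The 210 Mpo-low cells (red) lie left of 200 CPM and the 399 Mpo-high cells (blue) right of 500, with 43 cells between (yellow) and 177 above the S100 limit (grey).

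The same limits found few such cells in the other conditions except day 5 benzarone. They held 55 of 883 day 1 DMSO cells (6.23%, 4.73 to 8.03), 56 of 826 day 1 benzarone cells (6.78%, 5.16 to 8.71) and 87 of 1662 day 5 DMSO cells (5.23%, 4.21 to 6.42). At day 5 in benzarone they held 796 of 1496 cells (53.2%, 50.6 to 55.8), and 23 cells there were Mpo-high. With every cell thinned to 10000 UMIs the shares were 5.44%, 6.05% and 4.75% in the first 3 of these, 23.9% at day 3 and 50.8% at day 5 in benzarone. Thinning left out 42 day 5 DMSO and 126 day 5 benzarone cells that were shallower. The share in benzarone was thus near that of DMSO on day 1 and above every DMSO share on days 3 and 5, by more than the counting error.

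Depth was alike in the sets compared. Mpo-low and Mpo-high day 3 cells had medians of 43893 and 46212 UMIs, and 5010.5 and 5282 genes. Mitochondrial RNA made up 2.21% and 2.20% of UMIs. Day 5 cells were shallower, with 22080.5 and 24561 UMIs at the median in Mpo-low benzarone and Mpo-high DMSO cells. The tables of days 1 and 3 (2538 cells) and of day 5 (3158 cells) shared 9 barcodes. The table of days 1 and 3 lists 9448 genes, and all levels are over the listed genes.

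To describe what the cells hold, UMIs were summed over each set and given as CPM. Of 2728 genes with at least 50 CPM in the higher set and 20 UMIs in all, 242 (8.87%) were at least 2-fold higher in Mpo-low than in Mpo-high day 3 cells and 77 (2.82%) at least 2-fold lower. The large differences lay on 1 side: 125 genes were at least 4-fold higher and 3 at least 4-fold lower, and 41 against 0 differed by 32-fold. Genes below these limits are named in places but not counted. A gene near 0 in 1 set could pass only through its level in the other. The counts of lists below therefore leave out members that were low in both sets. The median gene was lower by 0.25 on the log2 scale, with 844 genes above and 1884 below a ratio of 1. With ratios centred on that median the counts were 311 and 19, so 94.2% of the called genes were higher, against 75.9% uncentred. With each cell thinned to 20000 UMIs the counts were 265 and 148 (64.2% higher), with 20 shallower day 3 cells left out. In cells with little replication and mitosis RNA they were 305 and 351 (46.5% higher), so the 2-fold counts did not lean to the higher side there. Chemokines, macrophage genes and lysosomal proteases were higher in the Mpo-low cells, and 7 of 12 genes of the primary granule list were lower.

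Chemokine genes had the highest median ratio of all lists. Of 12 chemokine genes listed, the 11 that passed the limits were all at least 2-fold higher, against 8.87% of all genes tested. Their median log2 ratio was 6.36, against -0.25 over all genes tested. Ppbp was at 4585 CPM in Mpo-low cells and 28.1 in Mpo-high cells, a ratio of 163 (150 to 178). Pf4, its neighbour on the chromosome and the gene of platelet factor 4, was at 1527 and 14.4 CPM (106-fold). Ccl2, the main monocyte attractant, was at 1696 and 9.09 (187-fold), Ccl7 at 581 and 5.54 (105-fold, 86.3 to 129) and Ccl12 at 668 and 3.23 (207-fold). Ccl2, Ccl7 and Ccl12 are close relatives, so reads shared between them could be split by the counting. Neutrophil-attracting Cxcl2 and Cxcl3 were at 645 and 1123 CPM, against 9.89 and 13.7. Chemokines that both sets held were higher as well, among them Ccl6 at 2821 against 89.6, Ccl9 at 1372 against 259.9 and Ccl3 at 390 against 54.5 CPM.

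RefSeq promoter sequences for GRCm38.p6 were matched for 182 of the 242 higher genes and 67 of the 77 lower genes, and are shown here for some of the RNAs that separated the sets widely. Each runs over the 250 bases before the annotated start. Capitals mark matches on either strand to TTGCNNAA (C/EBP factors), GAGGAAGT (PU.1, the product of Spi1) or TATAAA (a core promoter box). TGAGTCA (AP-1) and the motif of NF-kB were searched too and had no match in these windows, and no 2 matches overlapped. Ppbp and Pf4 lie at chr5:90768268-90768517 and chr5:90772185-90772434, Ccl12 at chr11:82101595-82101844, Mmp8 at chr9:7558179-7558428 and Elane at chr10:79886062-79886311, all on the plus strand:
Ppbp: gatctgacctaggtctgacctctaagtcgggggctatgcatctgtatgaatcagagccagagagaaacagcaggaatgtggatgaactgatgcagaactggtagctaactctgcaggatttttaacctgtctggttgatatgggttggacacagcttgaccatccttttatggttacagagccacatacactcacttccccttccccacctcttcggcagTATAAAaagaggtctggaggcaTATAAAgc
Pf4: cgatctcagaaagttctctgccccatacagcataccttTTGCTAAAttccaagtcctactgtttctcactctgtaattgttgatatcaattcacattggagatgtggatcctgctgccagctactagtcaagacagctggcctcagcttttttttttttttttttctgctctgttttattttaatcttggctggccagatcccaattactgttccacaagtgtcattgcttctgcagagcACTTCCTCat
Ccl12: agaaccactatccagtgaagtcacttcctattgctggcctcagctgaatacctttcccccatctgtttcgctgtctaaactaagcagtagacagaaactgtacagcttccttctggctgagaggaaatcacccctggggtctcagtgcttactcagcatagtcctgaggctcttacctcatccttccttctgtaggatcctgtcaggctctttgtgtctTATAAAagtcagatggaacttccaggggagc
Mmp8: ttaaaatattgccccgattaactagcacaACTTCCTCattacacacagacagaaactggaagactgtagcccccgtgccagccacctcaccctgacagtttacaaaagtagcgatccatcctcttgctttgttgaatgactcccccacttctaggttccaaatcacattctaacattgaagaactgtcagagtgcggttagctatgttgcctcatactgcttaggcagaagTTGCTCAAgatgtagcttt
Elane: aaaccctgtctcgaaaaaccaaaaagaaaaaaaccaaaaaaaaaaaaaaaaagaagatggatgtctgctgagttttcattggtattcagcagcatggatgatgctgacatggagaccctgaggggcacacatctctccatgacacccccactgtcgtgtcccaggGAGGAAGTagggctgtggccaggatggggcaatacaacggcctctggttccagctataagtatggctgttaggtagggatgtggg

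The matches begin 30 and 8 bases before the start in Ppbp, 31 in Ccl12, 212 (C/EBP) and 10 (PU.1) in Pf4, 221 (PU.1) and 19 (C/EBP) in Mmp8, and 85 (PU.1) in Elane. A C/EBP match stood in 12% of the promoters of higher genes, 4.82% of those of lower genes, 8.16% of those of all tested genes and 9.56% of all 32851 promoters. For PU.1 these shares were 5.78%, 7.23%, 3.25% and 2.44%, and for TATAAA they were 12%, 10.8%, 6.80% and 12.4%. The AP-1 shares were 5.78%, 1.20%, 2.87% and 4.46%, and the NF-kB shares 1.33%, 0%, 0.378% and 0.356%. In numbers, PU.1 letters stood in 13 of 225 promoters of higher and 6 of 83 promoters of lower genes. The motifs were picked with the gene lists known, and a match describes letters, not binding. Arg1, Ccl7, Ccl2 and Maf were not in the promoter table.

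Arg1 itself was at 1247 CPM in Mpo-low cells and 6.24 in Mpo-high cells (200-fold, 167 to 242). It was uneven between cells: its lower quartile was 0, its median 16.5, its upper quartile 1676 and its highest cell 13700 CPM. An Arg1 UMI was seen in 52.4% of Mpo-low cells and in 23.8% of Mpo-high cells. Ccl7 UMIs were in 36.7% and 22.1%, and Ppbp UMIs in 87.6% and 71.7%. With each cell thinned to 10000 UMIs these shares were 40.5% and 5.26% for Arg1, 21.9% and 4.51% for Ccl7, and 61.9% and 22.3% for Ppbp. No Mpo-high cell reached 100 CPM of Arg1 or Ccl7 (0 of 399, exact upper limit 0.920%). Whether the few UMIs of these genes in such cells are background or low expression was not tested. At 100 CPM and above, Arg1 marked 73 of 210 Mpo-low cells (34.8%, 28.3 to 41.6), Ccl7 37 cells (17.6%) and Ppbp 105 cells (50%, against 5 of 399). The median Ppbp level was 99.9 CPM, at the limit itself, and 28 cells lay at 50 to 200 CPM. The genes that give this group of cells its label therefore marked a portion of them. Of the 4 genes of alternative macrophage activation tested, Arg1, Il4ra and F13a1 were higher (8.87% over all genes tested) and Myc lower (2.82%).

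Macrophage genes were higher over a wide range of levels. Of 26 monocyte and macrophage genes listed, 17 passed the limits. Of these 17, 15 were at least 2-fold higher (8.87% over all genes tested) and 1 lower, with a median log2 ratio of 3.23. The macrophage transcription factor Maf was at 54.9 CPM, against 0.161 in Mpo-high cells (3 UMIs). Maf UMIs were in 38.1% of Mpo-low and 0.752% of Mpo-high cells. The complement genes C1qb and C1qc were at 55.3 and 47.0 CPM, against 0.215 each, but their UMIs came from 15.7% and 14.8% of the Mpo-low cells. Gpnmb, a glycoprotein of phagocytes, was at 68.4 against 0.376, and the scavenger receptor Msr1 at 200.3 against 2.69. The lipid receptor Trem2 was at 97.7 against 1.29, and Lgals3, the gene of galectin-3, at 688 against 19.6. Csf1r, the receptor for macrophage colony-stimulating factor, differed less, at 43.4 against 9.57 (4.54-fold). Ly6c2, of classical monocytes, was the 1 lower gene, at 65.1 against 142. Cx3cr1, C1qa and Klf4 were not among the genes listed.

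Other genes with some of the largest ratios encode proteins of several kinds, among them surface receptors, protease inhibitors and a lysosomal protease. Sirpb1c, of the signal regulatory protein family, had 603 UMIs in the Mpo-low cells (65.2 CPM, a UMI in 58.1% of cells) and 1 UMI in the Mpo-high cells (ratio 1212, interval 217 to 47958). Serpinb2, a plasminogen activator inhibitor, was at 190 against 1.45 CPM and C3ar1, the receptor for complement C3a, at 80.2 against 0.699. Lgmn, the lysosomal protease legumain, was at 95.4 against 0.699 and Stfa2, a cystatin, at 104 against 0.914. Sirpb1c and Stfa2 have near-identical relatives, so their counts are uncertain. Pid1, an adaptor protein, was at 57.1 against 0.323 and was seen in 46.7% of Mpo-low cells.

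Genes of late neutrophils were higher. Of 16 such genes listed, 10 passed the limits, which leave out those low in both sets. Of these 10, 9 were at least 2-fold higher (8.87% over all genes tested) and 0 lower, with a median log2 ratio of 2.94. Mmp8, neutrophil collagenase, was widespread, at 793 CPM against 9.14 (86.8-fold, 74.5 to 102), and reached 100 CPM in 141 of 210 Mpo-low and 3 of 399 Mpo-high cells. Mmp9, gelatinase B, was at 56.8 against 0.699, Ifitm6 at 234 against 6.77 and Wfdc21 at 1002 against 75.4. The NADPH oxidase gene Cybb was at 82.8 against 9.78. Lcn2, a secondary granule protein, differed by a log2 ratio of 2.25. Other secondary granule genes, named after their values were seen, were near 0 in both sets: Ltf, lactoferrin, was at 0.648 against 0.484, Camp, cathelicidin, at 0.324 against 0.914 and Ngp at 2.27 against 2.47 CPM. Cells with much S100a8 and S100a9 had been removed from both sets by the rule.

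Of 14 lysosome genes tested 7 were at least 2-fold higher and 0 lower (median 1.60). Over all genes tested, 8.87% were higher and 2.82% lower. The proteases Ctsl, Ctss and Ctsb were at 1372, 163 and 583 CPM, against 58.2, 9.35 and 96.8. Fth1, the ferritin heavy chain that stores iron, was abundant in both sets, at 15029 against 3116 (4.82-fold), and Ftl1, the light chain, differed by 1.65-fold. Hmox1, which breaks down heme, was at 219 against 20.4 (10.7-fold) and Blvrb, biliverdin reductase B, at 102 against 22.8. These 3, Fth1, Hmox1 and Blvrb, were the only ones of 14 oxidative stress and iron genes tested to be at least 2-fold higher (median 0.31). Of 7 lipid genes tested 3 were at least 2-fold higher: Lpl, which releases fatty acids, at 320 against 16.2, Plin2, which coats lipid droplets, at 737 against 208, and Hilpda at 156 against 29.8.

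Of 5 growth factor receptor genes 3 were at least 2-fold higher (median 2.34). Of 9 lineage regulators 3 were higher and 2 lower (median 0.36), against 8.87% higher and 2.82% lower over all genes tested. Csf2rb, the shared chain of the receptors for GM-CSF and interleukin 3, was at 317 CPM against 62.4, and Il4ra, the interleukin 4 receptor, at 79.4 against 11.6. Id2, which blocks helix-loop-helix factors, was at 126 against 6.40 (19.7-fold) and Irf8, a monocyte factor, at 62.6 against 26.6 (2.36-fold). Spi1 differed by 1.28-fold. Gfi1, a granulocyte factor, was at 15.7 against 52.9 (3.37-fold lower). Other granulocyte factors were under the limits, Cebpe at 9.08 against 32.7 (3.61-fold lower) and Cebpa at 11.9 against 27.5 (2.32-fold lower). Cd74, the invariant chain of antigen presentation, was at 135 against 2.37 CPM, but a single cell held 13.3% of its UMIs in the Mpo-low set. Ly6a, a surface antigen of stem cells that interferon also raises, was at 122 against 4.19.

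Over all genes tested, 11.7% were at least 2-fold apart either way, 8.87% higher and 2.82% lower. Survival and stress lists with a single gene or none apart were close to these shares. Bcl2a1b, a survival gene with near-identical copies, was at 97.5 CPM against 7.20, and Mcl1 differed by 2.67-fold. Cdkn1a, the cell cycle inhibitor p21, was at 639 against 272 (2.35-fold), and it was the only 1 of 6 p53 target genes tested to differ by 2-fold. Immediate early Klf6 was higher by 4.15-fold. Of 13 unfolded protein response genes only Edem1 differed by 2-fold, of 15 glycolysis and hypoxia genes only Slc16a3, and of 11 cholesterol synthesis genes none. Of 9 genes of the ATF4 response and amino acid supply 2 were at least 2-fold lower (median -0.80), the serine synthesis genes Phgdh, at 144 against 358, and Psph. Of 7 immediate early genes 3 were higher (Klf6, Ier3 and Zfp36; median 0.90), as were 2 of 3 interferon response genes (Ifi27l2a and Ifitm3). Of 7 survival genes 2 were higher (median 0.28). None of the 10 mitochondrially encoded genes differed by 2-fold.

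Primary granule genes were lower, unevenly. Mpo was not counted. Of 12 other genes of the primary granule list tested, 7 were at least 2-fold lower and 2 higher (median -1.38). Over all genes tested, 2.82% were lower and 8.87% higher. The 7 include Ms4a3, a progenitor marker, and Igfbp4, a binding protein of growth factors (54.8 against 170 CPM), so not all encode granule proteins. Elane, elastase, was at 87.5 CPM against 792 (9.04-fold lower), Prss57 at 10.5 against 58.3 (5.56-fold lower) and Ctsg, cathepsin G, at 1150 against 4510 (3.92-fold lower). Ms4a3, which marks granulocyte and monocyte progenitors, was at 499 against 1720 (3.45-fold lower), and the cystatin Cst7 at 42.6 against 158. Prtn3, proteinase 3, was still abundant, at 1875 against 4112 (2.19-fold lower). The 2 higher genes, Lyz2 and Ctsc, are also made by macrophages. Lyz2, lysozyme, was at 6656 against 453 (14.7-fold), where 1 cell gave 16.9% of the UMIs of the Mpo-high set, and Ctsc, the activator of granule proteases, at 586 against 79.8. Outside this list, Hpgd, which degrades prostaglandins, was at 54.6 against 334 (6.12-fold lower) and Pdcd4, a translation inhibitor, at 28.3 against 103 (3.65-fold lower).

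**Figure D2:**
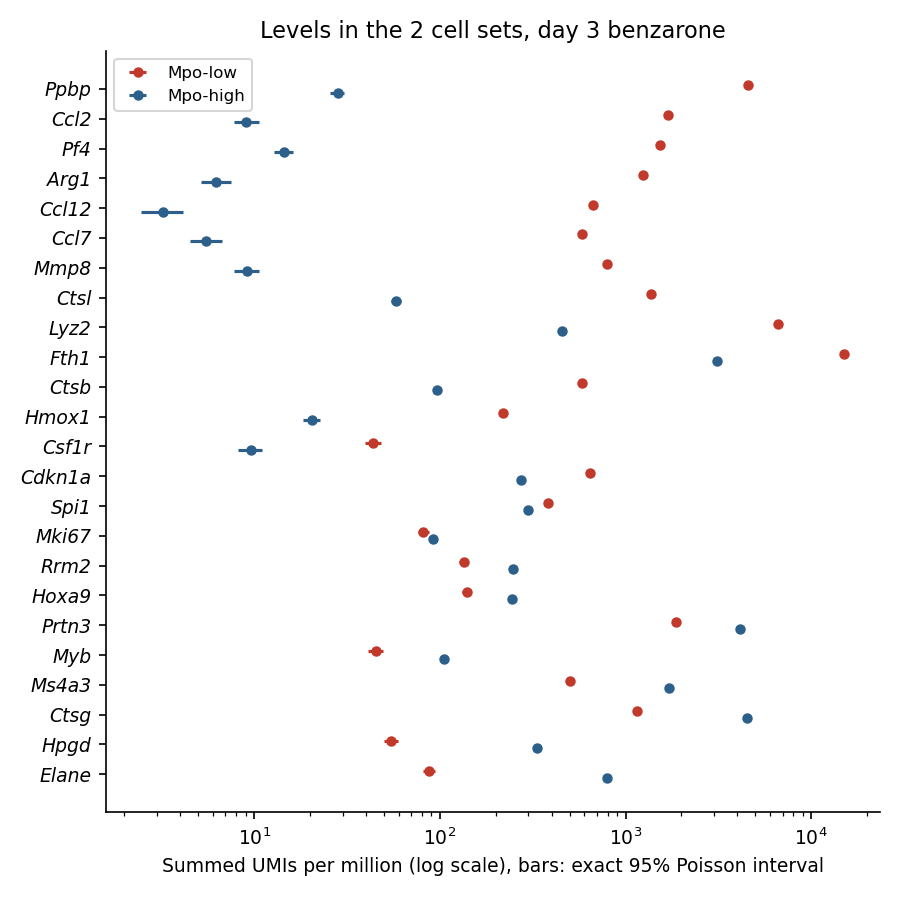
Summed UMI CPM (log scale) for 24 genes in the 210 Mpo-low (red) and 399 Mpo-high (blue) day 3 cells; bars are exact 95% Poisson intervals, hidden by the points where narrow. Ppbp stands at 4585 against 28.1 at the top and Elane at 87.5 against 792 at the bottom, while Spi1, Mki67 and Rrm2 lie close together.

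For progenitor and growth genes the same shares apply, 11.7% of all tested genes apart either way and 2.82% lower. The replication, ribosome synthesis and mitosis counts below were near these shares. Of 4 stem and progenitor genes tested, Myb was lower and Ly6a higher. Kit, the stem cell factor receptor, was at 1.19 CPM against 6.02, under the limits, and Myb at 45.1 against 105 (2.33-fold lower). Hoxa9, a regulator of progenitor self-renewal, was at 139 against 245, a log2 ratio of -0.81, and Hoxa10 differed by -0.35. None of the 3 HOXA and MEIS genes tested was 2-fold apart. Six4, a partner of the EYA proteins, differed by -0.12, and Eya1 was not among the genes listed for this table. Of 17 ribosome synthesis and MYC target genes 1 was at least 2-fold lower, Myc itself (2.13-fold lower), with a median of -0.78. Of 15 replication genes 1 was at least 2-fold lower, Mcm2 (2.02-fold lower), with a median of -0.66. Myb, Myc, Mcm2, Cebpa and Prtn3 were no longer 2-fold lower with ratios centred on the median gene, nor Myc, Mcm2 and Cebpa with thinned cells. None of 14 mitosis genes was 2-fold apart (median -0.51), and Mki67, a proliferation marker, was at 81.6 against 92.3. When the sets were limited to cells with little replication and mitosis RNA (136 and 156 cells), 305 genes were at least 2-fold higher and 351 lower.

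Markers of other blood cells were checked as whole lists. All 10 eosinophil genes were absent from the table, as were 16 of 17 erythroid, 14 of 15 T and NK, and 12 of 14 B lymphoid genes. Of 19 megakaryocyte and platelet genes only 5 were listed. The 4 that passed the limits, Ppbp, Pf4, Plek and Thbs1, were all at least 2-fold higher (8.87% over all genes tested). Itga2b, Gp1ba, Gp9 and Vwf, which define megakaryocytes, were not listed. Of 19 mast cell genes 6 were listed, without Cma1, Cpa3 or Fcer1a. The summed RNA of the 5 listed genes ran from 0 to 49332 CPM over the Mpo-low cells and from 0 to 260.3 over the Mpo-high cells. Most of it was Ppbp and Pf4, at 4585 and 1527 of 6393 CPM in the Mpo-low set, which are also counted as chemokines above. The part that other lineages play in these levels was not tested.

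The Mpo-low cells were not alike. Divided at 100 CPM of Arg1 and Ccl7, a level set after the data had been seen, 137 had little Arg1, 37 had Arg1 without Ccl7, and 36 had both. Only 1 cell had Ccl7 without Arg1, and it is counted with the 137. Few cells lay near the limits, 5 at 50 to 200 CPM of Arg1 and 3 of Ccl7. Other chemokines followed Arg1. Pf4 reached 100 CPM in 71 of the 73 Arg1 cells and 23 of the 137 others, Ppbp in 68 and 37, and Ccl2 in 56 and 7. Ctsg, Ms4a3 and Elane went the other way, with Ctsg at that level in 12 of 73 and 101 of 137 cells, Ms4a3 in 3 and 95, and Elane in 0 and 31. Across the 210 cells, Spearman's rho with Arg1 was 0.72 for Pf4, 0.67 for Ppbp and 0.64 for Ccl2, and -0.65 for Prtn3 and -0.60 for Ms4a3. These cells share 1 sample and differ in depth, so the values describe them only.

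From the Mpo-high cells through the 3 groups of Mpo-low cells, Prtn3, Ctsg, Elane and Ms4a3 stood lower at each step, while Cst7 and Lyz2 did not. Prtn3 was at 4112 CPM in Mpo-high cells, 2504 in the 137 cells with little Arg1, 743 in the 37 with Arg1 and 150 in the 36 with Arg1 and Ccl7. Ctsg stood at 4510, 1619, 92.8 and 67.1. Cst7 was at 158, 53.2, 15.8 and 21.0, and Lyz2 was higher in the Arg1 cells, at 453, 4577, 10670 and 12100. Hoxa9 was at 245, 172, 109 and 24.4, lowest in the cells with both. Hoxa10 was at 79.1, 76.5 and 53.2, and at 5.59 in the last group. Myb was at 105, 61.6, 14.4 and 0.699. Mki67 varied less, at 92.3, 91.9, 62.6 and 53.8.

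Macrophage RNA ran in the reverse order. C1qb was at 0.215, 1.40, 27.3 and 325 CPM, Csf1r at 9.57, 26.7, 46.0 and 116, and Gpnmb at 0.376, 3.27, 139.5 and 292. Fth1 was at 3116, 7446, 23709 and 40660 and Spp1, osteopontin, at 72.4, 841, 5532 and 13727. Mmp8 did not share this order, at 9.14, 544, 1389 and 1330 CPM: it was already high in the cells with little Arg1. Mmp9 and Thbs1 were highest in the cells with Arg1 and no Ccl7, at 218 and 556, against 126 and 286 in the cells with both. Il1r2, the decoy receptor for interleukin 1, was at 37.0, 505, 518 and 174. Srgn, a granule proteoglycan of many blood cells, was at 1256, 1562 and 1781 and then 425. Median depths of the 3 groups were 46424, 35853 and 41812 UMIs.

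**Figure D3:**
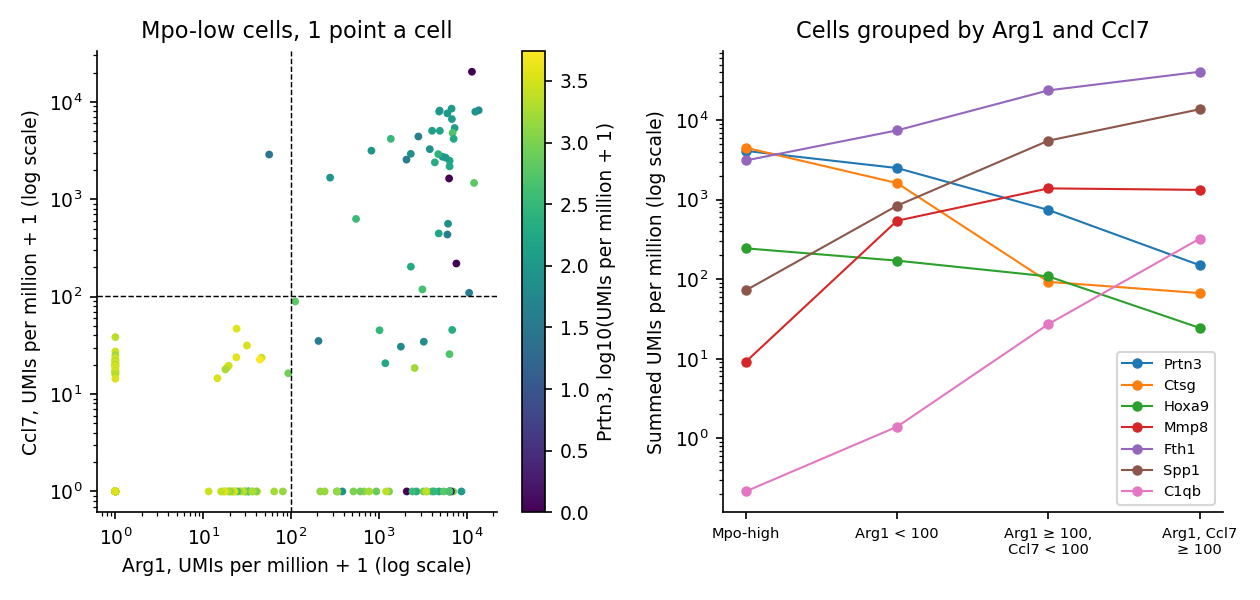
Left, each of the 210 Mpo-low cells by Arg1 (x axis) and Ccl7 (y axis), CPM plus 1 on log scales, coloured by Prtn3, with dashed lines at 100 CPM; right, summed UMI CPM (log scale) of 7 genes in the Mpo-high cells and the 3 groups cut from the left panel, with lines joining a gene's values. Cells with Ccl7 lie almost all among those with Arg1, Prtn3 steps down from 4112 to 150, C1qb up from 0.215 to 325, and Mmp8 levels off at 1389 and 1330.

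Without the 73 Arg1 cells, an alternative chosen after the data had been seen, 149 genes were at least 2-fold higher and 15 lower in the remaining 137 members. Of the 84 named genes that were 2-fold apart, all kept their direction and 71 stayed at least 2-fold apart. Irf8, Hilpda, Myb, Myc, Cebpa, Phgdh and Prtn3 were among the 13 that did not. Arg1 is counted in the 13 too, but its loss was fixed by leaving out the cells high in it.

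The other conditions were not used to choose these cells, and the same split was made in each. Since a limit on the level would keep members through the set where they are high, every member was counted here with no such limit, a choice made after the data had been seen, and a count of 0 was set to 3 UMIs. Of the 242 higher genes, 208 were at least 2-fold higher in Mpo-low cells at day 1 in DMSO, against 8.49% of all genes with a UMI. At day 1 in benzarone this held for 228 of 242 (10.2% of all), at day 5 in DMSO for 84 (10.9%) and at day 5 in benzarone for 216 (12.8%). None was 2-fold lower in any of the 4. Of the 77 lower genes, 32 were at least 2-fold lower at day 1 in DMSO (4.95% of all), 60 at day 1 in benzarone (6.99%), 9 at day 5 in DMSO (3.12%) and 70 at day 5 in benzarone (24.8%), and none was 2-fold higher. Up to 3 higher and 2 lower genes had no UMI in a condition and count as not apart. At day 1 in DMSO, 5 of the 242 had a count of 0 in 1 of the sets. The ratio of Ccl7 there (3.63-fold) rested on 1 UMI in the Mpo-low cells. The Mpo-low set of day 5 benzarone was compared with 23 Mpo-high cells only, against 55 to 87 Mpo-low cells in the conditions where those were rare.

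Mmp8, Lyz2, Cd74 and Elane separated the sets in every condition. Mmp8 was at 584, 869, 793, 248 and 1183 CPM in the Mpo-low cells of day 1 DMSO, day 1 benzarone, day 3, day 5 DMSO and day 5 benzarone, with log2 ratios to Mpo-high cells of 5.87, 6.76, 6.44, 3.24 and 4.43. The log2 ratios of Cd74 were 6.16, 5.94, 5.84, 4.69 and 5.64 in the same order. Those of Elane were -4.56, -4.52, -3.18, -2.83 and -4.46. Prtn3 stood at 1847, 1901, 1875 and 1342 CPM in the first 4 and at 365 in day 5 benzarone, where its ratio was -3.33.

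Arg1, Ccl7 and Ppbp depended more on the condition. Arg1 was at 34.5 CPM in the Mpo-low cells of day 1 DMSO, 542 in day 1 benzarone, 1247 at day 3, 22.3 in day 5 DMSO and 1763 in day 5 benzarone. Ccl7 was at 0.406 (1 UMI), 300, 581, 39.3 and 1192, and Ppbp at 237, 1077, 4585, 87.6 and 5409. Cells with 100 CPM of Arg1 made up 3 of 55, 12 of 56, 73 of 210, 2 of 87 and 427 of 796 Mpo-low cells. The highest levels were thus in benzarone, though at day 1 the intervals of these shares overlapped (5.45%, 1.14 to 15.1, and 21.4%, 11.6 to 34.4). Such cells were not confined to the Mpo-low sets. Over the S100 limit they were 7 of 177, 6 of 162, 14 of 177, 13 of 337 and 172 of 663 cells in the same order. Among Mpo-high cells of day 5 DMSO they were 37 of 1164. Day 5 cells were shallower, so 100 CPM stands for fewer UMIs there. In day 5 DMSO the Mpo-high cells held as much as the Mpo-low cells, with Arg1 at 20.6, Ccl7 at 40.4 and Ppbp at 99.5 CPM and a Ppbp UMI in 89.3% of cells, against 87.4%. These DMSO cells shared a sample with the day 5 benzarone cells, and levels so alike in both sets cannot be told apart from background.

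**Figure D4:**
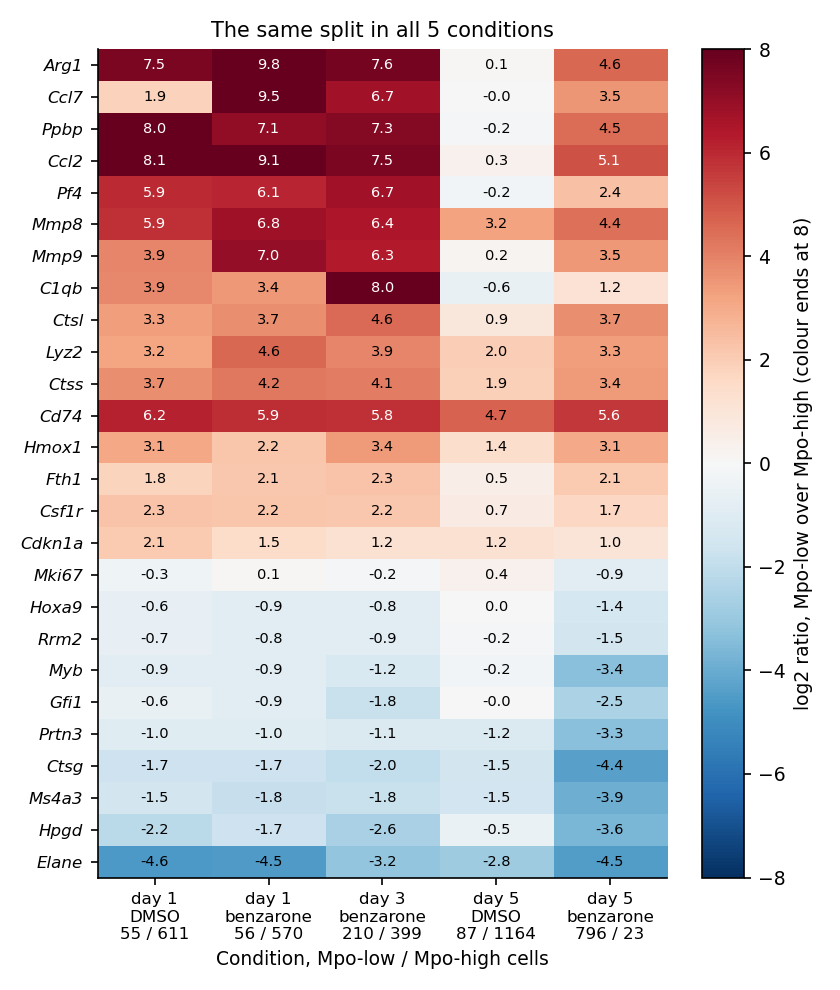
Log2 ratio of summed UMI CPM in Mpo-low over Mpo-high cells for the named genes (rows) in the 5 conditions (columns, with the number of cells in each set); red is higher and blue lower in Mpo-low cells, and colours end at 8. Elane is blue and Mmp8 and Cd74 red in all 5 columns, while Arg1, Ccl7, Ppbp and Ccl2 are near 0 in day 5 DMSO.

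Binding of the Ty1-tagged MOZ-TIF2 in the same kind of cells was deposited as 2 peak lists. A peak in both lists lay within 1 kb of a start for 41 of 182 higher genes (22.5%), 28 of 67 lower genes (41.8%) and 1002 of 2166 genes tested in the cells (46.3%). With the first list alone the shares were 24.7%, 46.3% and 50.1%. Median levels in Mpo-high cells were 29.2, 105 and 103 CPM in the 3 groups of genes, and no share at matched levels was computed for the higher genes. Among genes at 50 to 200 CPM in Mpo-high cells, 577 of 1354 tested genes (42.6%) and 17 of 49 lower genes (34.7%) had a peak in both lists. Prtn3, Ctsg, Gfi1, Cebpa, Hpgd, Hoxa9 and Meis1 had a peak in both lists, and Ppbp, Ccl12, Gpnmb, Elane, Irf8 and Kit in neither. The label of the second sample names the antibody used for acetylated histone, so that list may not be a Ty1 list.

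The bulk lines give the replicated comparison of benzarone with DMSO, in cells made with other oncogenes. The question asked here is whether genes that set the Mpo-low cells apart also moved with the drug in whole cultures, where fewer cells of a type and less RNA per cell cannot be told apart. In the line with EYA1 and HOXA9, 3933 of 13375 genes changed (29.4%), 2278 higher (17%) and 1655 lower (12.4%), by edgeR's quasi-likelihood test at an adjusted p of 0.05. Without DMSO replicate 3 the count was 2353. Of the 242 genes higher in Mpo-low cells 235 were tested, and 108 rose (46.0%) and 12 fell (5.11%), with a median log2 change of 0.53. Of the 77 lower genes 76 were tested, and 7 rose (9.21%) and 23 fell (30.3%), with a median of -0.31. Over the 2691 genes tested in both kinds of data 455 rose (16.9%) and 202 fell (7.51%), with a median of 0.05.

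Of 27 monocyte and macrophage genes tested in this line 13 rose, 1 fell and 13 did not pass, and of 24 lysosome genes 20 rose and 4 did not pass (medians 0.97 and 0.69, against 0.01 over all genes). C1qb (-0.41), C1qc (-0.32), Maf (1.25) and Lgmn (0.30) were among those that did not pass, and neither did C3ar1 (1.49), which is in neither list. Gpnmb stood at 861, 1314 and 2015 CPM in the 3 benzarone libraries and at 173, 253 and 311 in DMSO, with no overlap (log2 change 2.51, edgeR adjusted p = 0.000247). Irf8 was at 91.0 ± 23.8 against 35.1 ± 7.15 (SD, n = 3; log2 change 1.37, edgeR adjusted p = 0.000993). Csf1r was at 6.87, 16.7 and 28.9 in benzarone and 4.67 to 5.79 in DMSO (1.75, edgeR adjusted p = 0.00965), and did not pass without benzarone replicate 1, where the change was 1.17. Ctsb rose by 1.15, Ctss by 1.77 and Ctsl by 0.88, and Fth1 rose by 1.00 and Blvrb by 0.92 (edgeR adjusted p of 0.00274 or less). Klf6 rose by 0.96 and Il4ra by 1.03.

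Elane, Prss57, Cebpe and Gfi1 fell, and Cebpa did not pass (-0.25, edgeR adjusted p = 0.280). Elane was at 428, 491 and 501 CPM in benzarone and 2050, 2418 and 2456 in DMSO, with no overlap (-2.29, edgeR adjusted p = 2.4e-06). Cebpe fell by 2.90 (edgeR adjusted p = 0.00431), from 34.3 ± 6.25 to 4.59 ± 1.78 (SD, n = 3). Prss57 fell by 0.93, Gfi1 by 0.55, Myb by 0.62, Myc by 1.24 and Igfbp4, a binding protein of insulin-like growth factors, by 1.04 (edgeR adjusted p of 0.00893 or less).

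Some genes went against the cells, or did not pass. Ctsg rose by 0.65 (edgeR adjusted p = 0.00687) and Pdcd4 by 1.08, though both were lower in Mpo-low cells, and Bcl2a1d, higher in them, fell by 2.08 (edgeR adjusted p = 0.00316). Hoxa9 rose by 1.87, from 382 ± 108 to 1402 ± 216 CPM (SD, n = 3), in a line that carries a HOXA9 retrovirus, and whether transgene reads are counted with the mouse gene was not tested. The genes of the cells' label were low and did not pass: Arg1 was at 0.539 to 1.79 CPM in benzarone and 4.76 to 7.06 in DMSO (-2.13, edgeR adjusted p = 0.0965), without overlap. With the replicate block, with the other line left out of the fit, or without replicate 3 of either HOXA9 group, the lower level passed. The replicate numbers used by the block do not pair the libraries of this line. Log2 changes were -0.085 for Ccl7, 0.0099 for Ccl2, 1.05 for Pf4 and -0.37 for Mmp8 (edgeR adjusted p of 0.157 or more). Ppbp was at 0.951 ± 0.161 against 0.369 ± 0.205 (SD, n = 3; 1.36, edgeR adjusted p = 0.239), and passed with the other line left out. Of the 61 named genes that were at least 2-fold higher in Mpo-low cells, 22 rose, 6 fell and 33 did not pass, and of the 23 that were lower, 9 fell, 3 rose and 11 did not pass.

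In the line with HOXA9 alone edgeR called 0 of 13375 genes (0%), with 232 at an unadjusted p under 0.05, and DESeq2 called 14. With the replicate number as a block edgeR called 6 genes. Elane was at 3122 ± 119 against 3270 ± 291 CPM (SD, n = 3; log2 change -0.067) and Gpnmb at 335 ± 63.0 against 222 ± 55.4 (0.59). The benzarone effect itself differed between the lines for 1009 genes (7.54%), and for 408 without DMSO replicate 3 of the line with EYA1. Elane (difference -2.22, edgeR adjusted p = 0.000127), Ctsl (0.80, edgeR adjusted p = 0.0136) and Prss57 (-1.14, edgeR adjusted p = 0.0129) were among them. In the HOXA9 line the replicate numbers were taken to pair the libraries. Arg1 was at 13.3, 10.8 and 66.0 there in benzarone replicates 1 to 3. In the DMSO replicates of the same number it was at 4.61, 5.56 and 35.1, so benzarone was higher in all 3 pairs. Ppbp was at 2.79, 2.10 and 11.8 against 1.41, 0.954 and 5.39, again higher in all 3. With the block the log2 change was 1.07 for each, and neither passed (edgeR adjusted p = 1, unadjusted p = 0.0784 for Arg1 and 0.0933 for Ppbp). Irf8 and Plin2 passed there with the block (0.83 and 1.04, edgeR adjusted p = 0.0451 for both). The block was fitted over both lines together, and no paired test of the HOXA9 line alone was run.

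**Figure D5:**
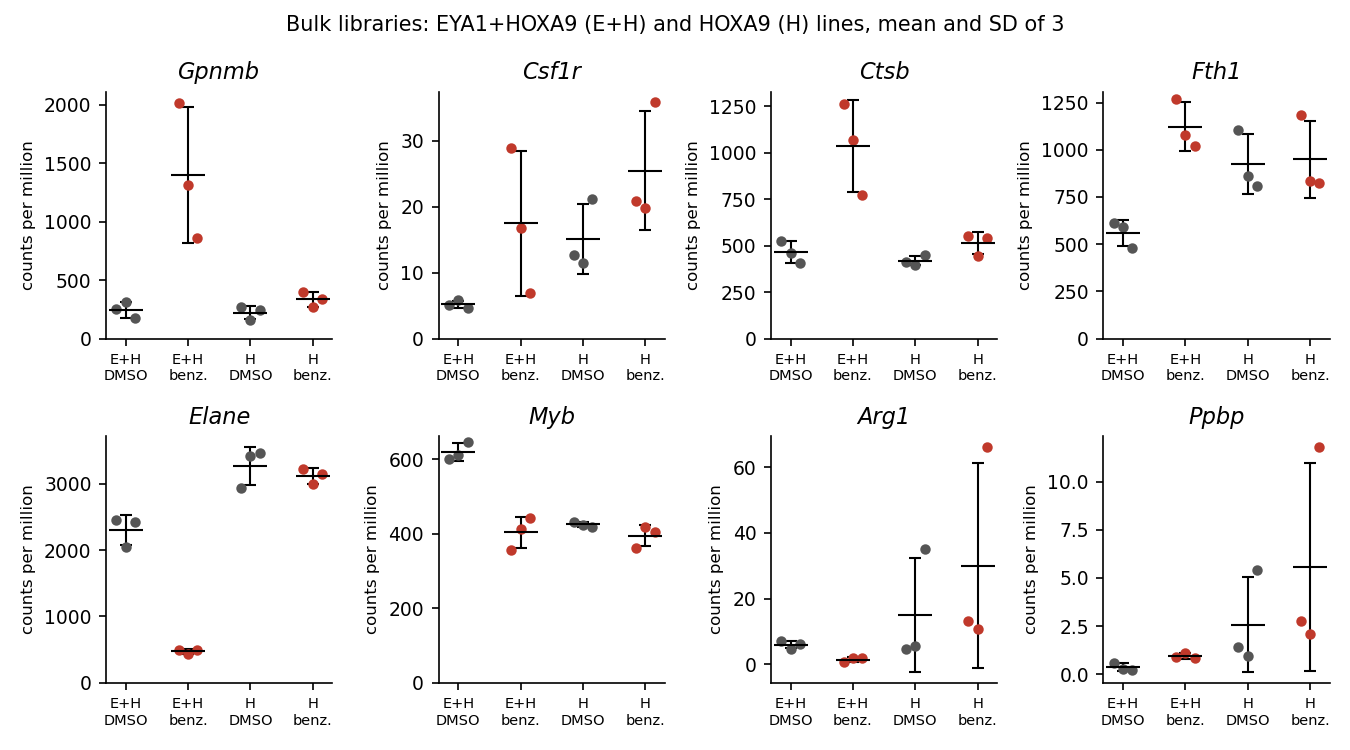
CPM of 8 genes in each bulk library (points) of the lines with EYA1 and HOXA9 (E+H) and HOXA9 alone (H), in DMSO (grey) and benzarone (red); lines are means and bars SD of 3. In E+H all 3 benzarone libraries lie above DMSO for Gpnmb (861 to 2015 against 173 to 311) and below it for Elane (428 to 501 against 2050 to 2456), while Arg1 and Ppbp stay low there.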

How the data were processed

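Single-cell RNA was read in a MOZ-TIF2 line in 5 conditions, bulk RNA in 12 libraries of 2 further lines and Ty1 binding in 2 peak lists. The deposited single-cell tables give raw UMI counts, 1 row a gene and 1 column a cell, with samples told apart by hashtag antibodies per the labels' protocols. The bulk table the authors deposited gives estimated counts, which need not be whole. The submitters' processing notes name Salmon 0.13.0, Cell Ranger 3.0.0 and Bowtie2 without their roles. Peak lists hold intervals on GRCm38 without scores. Other files were not used here, and some genes are not reported here.

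The cells, gene lists, motifs and tests were chosen with earlier results of these data known. Cells were set apart by the stated limits, without clustering or a doublet caller, and cells over 1.5 times the median UMIs were left out only as an alternative. UMIs were summed per set and given as CPM, with exact Poisson, Clopper-Pearson or conditional ratio intervals (95%) in SciPy 1.17.1 (Python 3.11.15). Genes needed 50 CPM in the higher set and 20 UMIs in all, and 2-fold was the limit for a difference. Named genes were a fixed set, the 12 largest ratios each way seen in 20% of cells, and up to 4 members of each of 32 lists at 20 CPM. The limit of 100 CPM for Arg1 and Ccl7, and genes such as Spp1, Il1r2, Msr1, Trem2, Lgals3, Ltf and Camp, were chosen after values were seen.

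Bulk counts were rounded and tested in R 4.3.3 with edgeR 4.0.16 over all 12 libraries (26340437 to 34605973 counts), with filterByExpr, TMM, the two-sided quasi-likelihood F test and Benjamini-Hochberg adjustment over 13375 genes. DESeq2 1.42.0, no filter, a replicate block, the line's own libraries and leaving out each library were alternatives. Group values are CPM of TMM-scaled libraries. Deviations of libraries with the same number correlated at 0.279, 0.300 and 0.550 in the HOXA9 line, against 0.161 or less with other numbers. Its numbers were therefore taken to pair the libraries, though the sample titles give numbers only. The main fit did not use this pairing. In the line with EYA1, deviations of libraries with the same number correlated at -0.0025, -0.065 and 0.0082, so there the libraries share only a number. The replicate block fitted effects of the number that were shared by both lines, so it is not a paired test of either line.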

Additional observations from a re-analysis of the deposited data

Results flagged for a closer look

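For 15 of the genes with bulk values described here or above, Mpo apart, the benzarone effect in the line with EYA1 and HOXA9 differed from that in the line with HOXA9 alone by edgeR's test of the difference at an adjusted p of 0.05. The differences in log2 change were 1.92 for Gpnmb, 0.86 for Ctsb, 0.80 for Ctsl, 0.97 for Fth1, 0.91 for Blvrb and 0.92 for Klf6, all genes that were higher in Mpo-low cells. They were -2.22 for Elane, -3.03 for Cebpe, -1.14 for Prss57, -1.17 for Myc and -0.90 for Igfbp4, all lower in Mpo-low cells. Hoxa9 (1.81), Bcl2a1d (-3.29), Bcl2a1b (-2.76) and Wfdc21 (-2.00) differed the other way from the cells. Elane, Ctsl, Prss57, Hoxa9, Bcl2a1d and Wfdc21 passed under all 15 alternatives. Ctsb failed in 11, Cebpe in 10, Fth1 in 8, Blvrb, Myc and Bcl2a1b in 7, Igfbp4 in 6, and Gpnmb and Klf6 in 4 of them. All of these leave out a single library, except 1 for Ctsb without a filter on low counts.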

How the results depend on the processing

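The share of Mpo-low cells at day 3 stayed between 22.6% and 27.1% under every alternative. The 84 named genes that were 2-fold apart kept their direction in every alternative in which they were recomputed. Of these, 77 were still 2-fold apart with centred ratios (without Cebpa, Dhcr7, Mcm2, Myb, Myc, Prtn3 and Psph), 81 with thinned cells (without Cebpa, Mcm2 and Myc) and 83 with Mpo under 300 or S100 under 500 CPM (without Mcm2), and 71 without the Arg1 cells. At least 2-fold higher genes numbered 438 with a limit of 20 CPM, 156 with 100, 840 with no filter and 149 without the Arg1 cells (this last chosen after the data had been seen), against 242. The count of lower genes, 77, was less stable: 131 and 49 with Mpo under 100 or 300, 148 with thinned cells, 19 with centred ratios, 117 without scaling, 137 by means of cells, 155, 40 and 388 with the filters of 20, 100 and none, 351 in cells with little cycle RNA and 15 without the Arg1 cells.

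Leaving out 1 bulk library gave 2353 to 4266 genes in the line with EYA1 and HOXA9, 0 to 1 in the HOXA9 line (1 without its benzarone replicate 1), and 408 to 1182 for the difference between lines. In these, DMSO replicate 3 of the line with EYA1 gave the lowest count in the first and the last. The count for the difference was also under the 1009 of all libraries by over 1.5 times without benzarone replicate 1 (570) or 2 (541) of that line, or without benzarone replicate 2 (667) or 3 (656) or DMSO replicate 1 (499) or 2 (588) of the HOXA9 line. DESeq2 called 1702 for the difference and 14 in the HOXA9 line, and the line's own libraries gave 1 there. With the replicate block the counts were 4046, 6 and 1290, and among genes named above Arg1, Hpgd, S100a8 and Slc16a3 then passed and Ier3 no longer did in the line with EYA1, Irf8 and Plin2 passed in the HOXA9 line, and Arg1, Hpgd, Pdcd4, Myb and Ftl1 passed for the difference between lines. Ccl7 and Ccl2 changed sign, neither called: Ccl7 was 0.042 with the block and -0.78 to 0.28 without single libraries, and Ccl2 was -0.0084 with DESeq2, -0.023 with no filter, -0.0033 with the line's own libraries and -0.52 to 0.33 without single libraries. The block fitted shared effects of the replicate number over both lines, though the numbers were taken to pair only the libraries of the HOXA9 line. The causes were not tested.

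Depth limits what the day 5 split shows, since only 23 Mpo-high cells remained in benzarone. Each cell condition is 1 sample, so no difference between conditions has a replicate check, and 3 libraries a group limit the bulk tests.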
